A study of Homo sapiens with 2 samples.

Results

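The Hippo pathway and the MST kinase family were examined in the list of genomic sites enriched by a Flag ChIP from PLC/PRF/5 cells. The set holds 10 genes, STK3, STK4, SAV1, LATS1, LATS2, YAP1, WWTR1, STK24, STK25 and STK26, and every deposited peak whose gene symbol was one of these names was taken. The genes were chosen by name and with the deposited folds in view, the strong STK24 peak among them, so their folds and counts are a description and carry no test. Of the 6373 deposited peaks, 4 were assigned to members, 1 each to STK24, YAP1, LATS2 and LATS1, and no peak was assigned to the other 6 genes. PLC/PRF/5 is an established human liver cancer cell line, and the cells of both libraries had received a ZFP64 lentivirus for overexpression of that zinc finger protein. There was 1 anti-Flag ChIP library and 1 library of input chromatin without an antibody, so no value has a replicate. The labels give no ChIP from cells without the virus, and how much of any peak depends on the tagged protein was not tested.

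In the Hippo pathway, the kinases STK4 (MST1) and STK3 (MST2), held by the scaffold SAV1, phosphorylate and activate the kinases LATS1 and LATS2. The LATS kinases phosphorylate the coactivators YAP1 and WWTR1 (TAZ), which are then kept out of the nucleus, whereas unphosphorylated YAP1 and WWTR1 enter it and act through the TEAD transcription factors. In mouse liver the pathway limits organ size, and loss of the MST kinases leads to overgrowth and tumours. STK24 (MST3), STK25 and STK26 (MST4) form the related GCKIII group of kinases, which associate with the STRIPAK phosphatase complex. A peak marks where a library was enriched and says nothing of whether the gene was expressed, which was not measured here.

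The sequence around the starts is shown first for the GCKIII kinases STK24 and STK25, because STK24 had one of the strongest peaks of the list and STK25 had none, and for KMT2A, the gene with the highest fold of all, as a reference. Each sequence is a 300-base window of the RefSeq promoter table (GRCh38.p14), from 250 bases before to 50 after an annotated start, 5′ to 3′ on the gene's strand. The windows are chr13:98577058-98577357 on the minus strand for STK24, chr2:241508296-241508595 on the minus strand for STK25 and chr11:118436242-118436541 on the plus strand for KMT2A. Capitals mark matches, on either strand, to any of the words CCCGGGGC, CCGGGGCC and CCCGGGCC, whose choice is described with the results on sequence.
STK24: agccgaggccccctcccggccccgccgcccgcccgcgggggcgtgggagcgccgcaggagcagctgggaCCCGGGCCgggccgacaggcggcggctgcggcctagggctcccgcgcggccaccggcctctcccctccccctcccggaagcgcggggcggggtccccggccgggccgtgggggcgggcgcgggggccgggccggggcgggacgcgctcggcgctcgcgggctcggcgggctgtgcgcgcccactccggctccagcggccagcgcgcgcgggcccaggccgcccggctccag
STK25: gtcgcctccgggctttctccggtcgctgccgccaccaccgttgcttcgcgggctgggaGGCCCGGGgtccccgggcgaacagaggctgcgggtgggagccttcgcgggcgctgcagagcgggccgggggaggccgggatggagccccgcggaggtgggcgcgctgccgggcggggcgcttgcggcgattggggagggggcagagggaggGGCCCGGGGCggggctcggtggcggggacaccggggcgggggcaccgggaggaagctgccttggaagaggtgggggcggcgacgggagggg
KMT2A: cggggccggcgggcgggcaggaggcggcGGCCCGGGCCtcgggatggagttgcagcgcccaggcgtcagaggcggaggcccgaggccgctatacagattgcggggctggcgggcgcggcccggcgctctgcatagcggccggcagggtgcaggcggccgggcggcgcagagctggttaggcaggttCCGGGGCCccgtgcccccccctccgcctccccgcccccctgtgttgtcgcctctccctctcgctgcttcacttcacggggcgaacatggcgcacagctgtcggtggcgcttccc

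For the LATS kinases the windows are shown because they place the edge of each peak. They are chr6:149718052-149718351 for LATS1 and chr13:21061537-21061836 for LATS2, both on the minus strand, and here the capitals mark the bases that lie inside a deposited peak, 216 for LATS1 and 82 for LATS2.
LATS1: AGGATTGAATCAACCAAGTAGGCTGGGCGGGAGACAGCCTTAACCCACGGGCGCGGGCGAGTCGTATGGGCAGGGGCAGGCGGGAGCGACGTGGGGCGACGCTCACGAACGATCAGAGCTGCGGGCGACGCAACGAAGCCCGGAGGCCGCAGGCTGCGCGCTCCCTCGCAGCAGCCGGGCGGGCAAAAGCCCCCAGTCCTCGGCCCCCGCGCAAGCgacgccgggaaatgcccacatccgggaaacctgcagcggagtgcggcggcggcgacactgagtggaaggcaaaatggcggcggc
LATS2: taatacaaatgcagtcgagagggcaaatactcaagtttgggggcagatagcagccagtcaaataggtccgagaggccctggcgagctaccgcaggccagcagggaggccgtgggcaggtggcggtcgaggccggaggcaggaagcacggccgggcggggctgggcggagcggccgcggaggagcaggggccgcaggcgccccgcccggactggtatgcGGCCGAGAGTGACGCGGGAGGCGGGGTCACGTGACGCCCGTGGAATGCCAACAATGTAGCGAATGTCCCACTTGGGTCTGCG

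At the GCKIII kinases the enrichment was unequal, with a fold of 188 at STK24 and no listed peak at STK25 or STK26. The fold is the authors' own value for each peak, the ratio of ChIP signal to the local background at the summit. The STK24 peak lay on chromosome 13 from 98575843 to 98577609 (hg38, 1767 bp), across an annotated start of the gene. It ranked 5 among the 4905 promoter peaks, meaning peaks within 3 kb of an annotated start, and also 5 among all peaks. Its p-value and q-value were deposited as 0, and 71 peaks of the list share a p-value deposited as 0. Fragment numbers could therefore not be recovered for it, but with the lowest background found anywhere in the list, 1.47 fragments, its fold corresponds to at least 464 ChIP fragments at the summit. The summit, at 98576321, lay 542 bp downstream of the start used in the deposited annotation and 786 bp downstream of the RefSeq start. No other peak overlapped the 132 kb gene, a further STK24 start in the promoter table, at 98522125, included. The nearest was 174 kb away, at SLC15A1, with a fold of 16.4.

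The peaks closest to STK24 in fold belonged to genes outside the pathway. Just above it stood ZFP64 itself (324), CDIP1 (195) and APBA2 (194), and just below it ZNF76 (149), SYNE2 (145) and EOGT (144). KMT2A, at 755, had 4.01 times the fold of STK24. With 1 ChIP library, likeness could be measured only as a neighbouring rank and not as a shared pattern across samples. The STK24 peak was wider than 95.0% of promoter peaks, whose median width was 573 bp.

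STK25, a GCKIII kinase linked to the Golgi apparatus, spans chromosome 2 from 241492670 to 241509572. Its nearest peak was 51.4 kb away, weak (fold 3.79, q-value 0.00733) and assigned to BOK-AS1. STK26 spans chromosome X from 132023302 to 132075943, and its nearest peak, assigned to HS6ST2, was 880 kb away. A gene without a listed peak may still have had enrichment below the threshold of the list, so these values do not show that enrichment was absent.

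**Figure D1:**
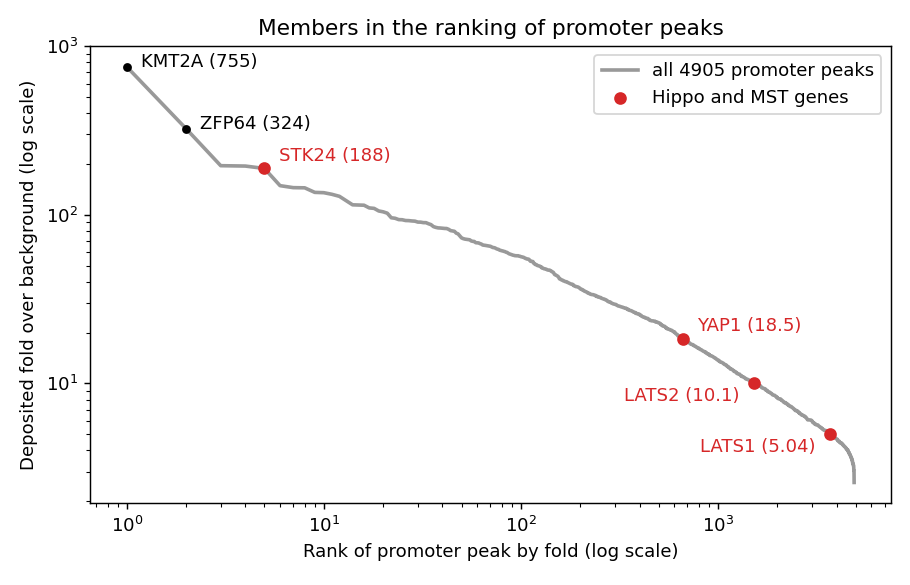
Deposited fold of each promoter peak (vertical axis, log scale) against its rank (horizontal axis, log scale). The grey line holds all 4905 promoter peaks, red points the 4 peaks of the set and black points KMT2A and ZFP64. STK24 (188) stands in the steep top of the ranking, YAP1 (18.5) and LATS2 (10.1) on its slope and LATS1 (5.04) near its foot.

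YAP1, the coactivator restrained by the pathway, stood at a fold of 18.5 (q-value 3.93e-74). Its peak covered chromosome 11 from 102109950 to 102112268, across the gene's start, and at 2319 bp it was wider than 98.8% of promoter peaks. At its summit 78 ChIP fragments were recovered (exact Poisson 95% interval 61.7 to 97.3), and the expected background was 3.28, which gives a ratio of 23.8 (18.8 to 29.7). These intervals cover counting error only, take the background as fixed and make no allowance for the summit being the highest point of the peak. YAP1 ranked 665 among promoter peaks, so that 86.4% of them had a lower fold. Its summit lay 1463 bp downstream of the RefSeq start, inside the gene, while the quartiles of all promoter summits were -102 and 388 bp from the start used in the deposited annotation. The STK24 fold was 10.2 times that of YAP1. A separate intergenic peak 23.3 kb from the YAP1 peak, with a fold of 5.92, was assigned to CFAP300.

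WWTR1, which encodes the paralogue TAZ, had no listed peak in its 208 kb on chromosome 3. The nearest lay 132 kb from the gene, with a fold of 6.45, and was assigned to TM4SF1-AS1. The coactivator pair therefore differed in the list in the same manner as the GCKIII kinases, with a peak at YAP1 and none at WWTR1. Whether the underlying enrichment differed cannot be tested with 1 ChIP library.

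Both LATS kinases had a promoter peak, and both folds were far below that of STK24. LATS2 had a fold of 10.1 (q-value 1.51e-21) on chromosome 13 from 21060837 to 21061618, with 29 fragments (19.4 to 41.6) where 1.97 were expected, a ratio of 14.7 (9.87 to 21.2). Its fold was above that of 68.9% of promoter peaks. LATS1 had a fold of 5.04 (q-value 2.44e-07) on chromosome 6 from 149718136 to 149718634, with 18 fragments (10.7 to 28.4) where 2.77 were expected, a ratio of 6.50 (3.85 to 10.3), and only 24.7% of promoter peaks had a lower fold. The counting interval of the LATS1 ratio lies wholly below that of YAP1, while that of LATS2 overlaps both. Differences between the genes were not tested. All 4 members were in the authors' smaller table of 3708 promoter peaks with a fold above 5, in which the lowest fold was 5.00059 and the highest left out was 4.99872, and LATS1 is close to that limit.

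The RefSeq start of LATS1 was flanked by a pair of peaks, as the capitals in its window show for one side. The peak assigned to LATS1 began 35 bp upstream of the RefSeq start and had its summit 245 bp upstream of it, inside the printed window. The start used in the deposited annotation, at 149718256, lay inside this peak. From that start the summit was at -90 bp (downstream positive). A further peak of fold 6.76 (q-value 1.3e-14), from 149717466 to 149717864, had its summit 402 bp inside the LATS1 gene but was assigned to the gene LOC645967. It held 28 fragments (18.6 to 40.5), and 271 bp separated it from the peak assigned to LATS1. By symbol alone LATS1 would thus be credited with the lower of 2 peaks at its start. At LATS2 the order was the reverse of the LATS1 peak, with the summit 266 bp downstream of the RefSeq start and the peak reaching only a short way upstream.

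**Figure D2:**
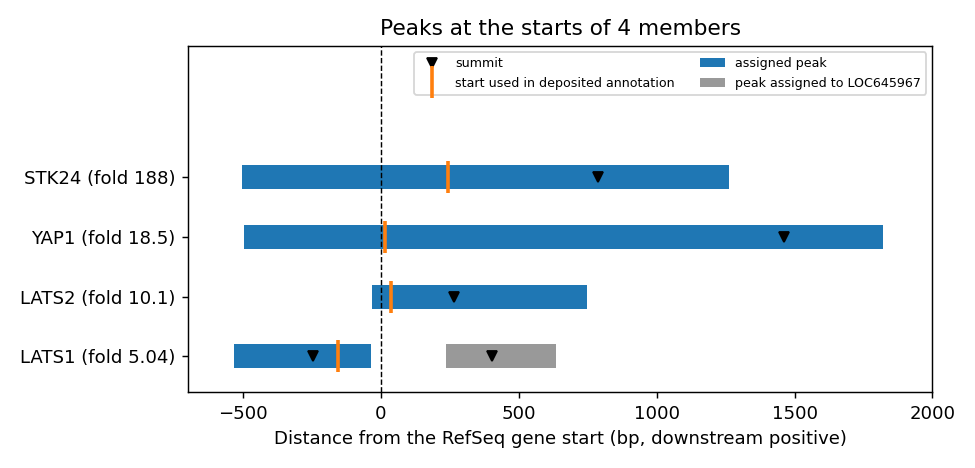
Position of the 4 member peaks in bp from the RefSeq start of each gene (horizontal axis, downstream positive), with 1 row for each gene. Blue bars are assigned peaks, the grey bar is the peak assigned to LOC645967, triangles are summits and orange ticks the start used by the deposited annotation. The STK24, YAP1 and LATS2 summits lie 786, 1463 and 266 bp downstream, and the LATS1 summit 245 bp upstream.

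The upstream kinases and their scaffold had no assigned peak. STK4 spans chromosome 20 from 44966512 to 45080021, and its nearest peak was 80.5 kb away, at the 14-3-3 gene YWHAB, with a fold of 4.55. SAV1 spans chromosome 14 from 50633580 to 50668306, and its nearest peak was 101 kb away, with a fold of 22.8. That peak lay at MAP4K5, which encodes another kinase able to activate the LATS kinases. STK3 differed from these, since a peak of fold 21.0 (q-value 2.65e-83) lay 1721 bp beyond one end of the gene on chromosome 8, from 98944331 to 98945743. The deposited annotation assigned it to the neighbouring transcription factor gene OSR2, whose start it overlapped. The promoter counts follow that assignment and leave the peak out for STK3, although it lay within 3 kb of a gene end. Counted by distance to either gene end, STK3 would make 5 members near a peak. Strand was not used in that count, so the end near this peak, at 98942610, may be the STK3 start.

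Read over the set, 4 of 10 members (40.0%, exact binomial 95% interval 12.2 to 73.8) had a promoter peak. Among all 19974 protein-coding genes of the autosomes and X the share with a promoter peak was 20.3%, and it lies inside that interval. A promoter peak with a fold of at least 10 was present at 3 members, STK24, YAP1 and LATS2, and at 6.97% of protein-coding genes. Because the members were picked with these folds known, nothing is read from either count. The median fold of the 4 peaks was 14.3, against 7.39 for the highest promoter peak of the 4049 protein-coding genes with one, and the 4 values ran from 5.04 to 188.

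Other genes of the pathway were described through 5 lists with 84 genes, and 31 of them (36.9%, 26.6 to 48.1) had a promoter peak, 12 with a fold of at least 10. Their median highest fold was 8.51. These lists were also written with earlier results of these data known. Their shares are set beside those of all protein-coding genes as a description only. Those were 20.3% with a promoter peak and 6.97% with one of fold at least 10. Overlap of a peak with a 300-base start window is a narrower criterion than a peak within 3 kb. The 93 such windows found covered 68 of the list genes. Of these windows 16.1% overlapped a peak, against 13.5% of all 22035 windows.

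Among regulators upstream of the LATS kinases, 15 of 30 genes (31.3 to 68.7%) had a promoter peak, and 7 of the 15 had a fold of at least 10. RASSF5, whose product binds the MST kinases through its SARAH domain, was highest with a fold of 50.8, on chromosome 1 from 206556875 to 206557812, and it held 183 fragments (157 to 212) where 2.62 were expected. WWC1, which encodes the scaffold KIBRA, had a fold of 28.0. The kinase gene MAP4K5 (22.8) and RASSF3 (21.2), a relative of RASSF5, followed. NF2, which encodes the tumour suppressor merlin, had a weak peak of fold 4.46 with 10 fragments (4.80 to 18.4). All 3 genes of the WWC family were represented, with WWC2 at 8.51 and WWC3 at 4.23.

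Of the LATS cofactors and the LATS-related NDR kinases, MOB1B alone of 4 genes had a promoter peak, against 20.3% of all protein-coding genes. MOB1B encodes an adaptor that activates the LATS kinases, and its fold of 85.1, on chromosome 4 from 70901758 to 70903349, ranked 36 among promoter peaks. STK38 had a single intronic peak of fold 3.37, 33.8 kb from the start used in the annotation. MOB1A and STK38L had no assigned peak.

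The nuclear partners and inhibitors of YAP1 and WWTR1 included TEAD3, with the highest fold of any listed pathway gene outside the 10 members. TEAD3 encodes a DNA-binding partner of YAP1, and its peak on chromosome 6 from 35495673 to 35498019 had a fold of 87.4 and rank 35. In this list 5 of 14 genes (12.8 to 64.9%) had a promoter peak, against 20.3% of all protein-coding genes. WTIP, an Ajuba-family protein that binds LATS, had a fold of 16.9, VGLL4, which competes with YAP1 for TEAD proteins, 8.10, and TEAD4 7.84. TEAD1 and TEAD2 were among the genes without a promoter peak.

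The promoter peaks assigned to genes for the STRIPAK complex and partners of the GCKIII kinases had low folds. That of STK24 was higher, but STK24 was chosen with its fold in view, so nothing is read from the difference. A promoter peak was listed for 5 of 17 (10.3 to 56.0%), with folds from 4.38 to 6.14, none reaching 10. Of all protein-coding genes, 20.3% had a promoter peak and 6.97% had one with a fold of at least 10. The highest in the list were PPP2R1B (6.14), a scaffold subunit of protein phosphatase 2A, and the striatin gene STRN3 (4.86), and CTTNBP2 was at 4.56. The PPP2R1B summit lay 3062 bp downstream of the start used in the deposited annotation, and PPP2R1B had no peak within 1 kb of a start. Fragment numbers at the peaks of the list ran from 11 to 18. A promoter peak of fold 110 was assigned to HSPE1-MOB4, whose name includes that of the listed gene MOB4, and was not counted for MOB4.

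Common targets of YAP1 and WWTR1 had a promoter peak in 6 of 21 genes (28.6%, 11.3 to 52.2), with folds from 7.10 to 16.1. Among all protein-coding genes the share was 20.3%, inside that interval. PTPN14, which also restrains YAP1 and is in the list of upstream regulators too, was highest (16.1), before ASAP1 (10.6), NT5E (10.2) and GADD45B (9.89). Of the 2 most used reporters of YAP1 activity, CCN2 had a promoter peak of fold 7.10 with 27 fragments (17.8 to 39.3), while CCN1 had only an intergenic peak of fold 3.81, 31.4 kb from its start. Both were singled out for their use as reporters, outside the rule for named genes.

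**Figure D3:**
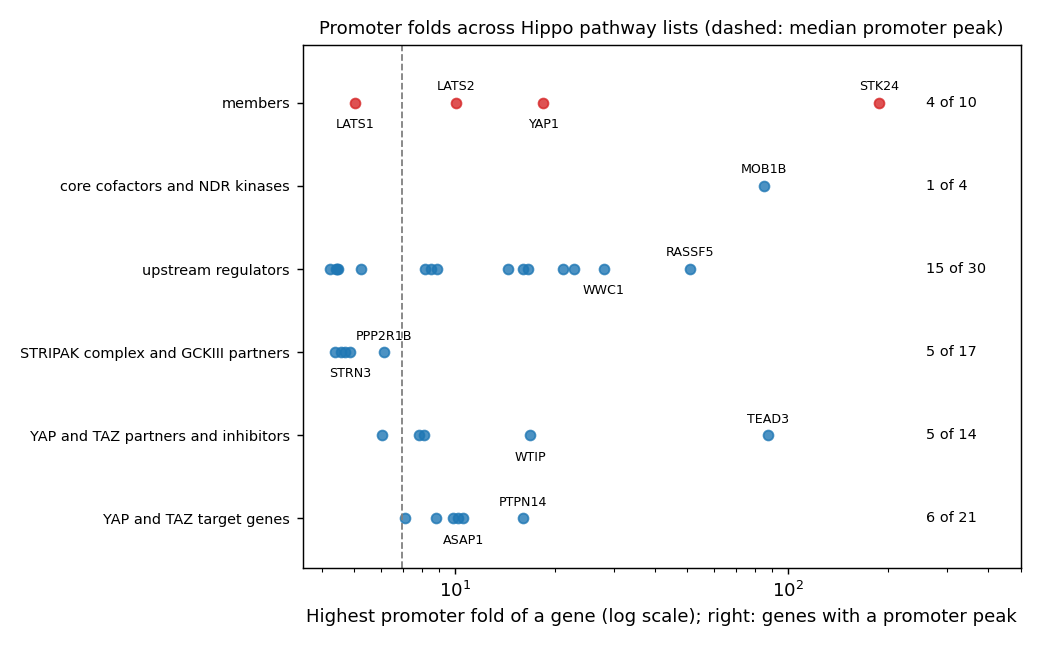
Highest promoter fold of each gene (horizontal axis, log scale) for the 10 members and 5 lists of other pathway genes, with 1 point for each gene that has a promoter peak. Numbers at the right give genes with a promoter peak of all genes in the list, and the dashed line is the median promoter peak (6.98). STK24 (188), TEAD3 (87.4) and MOB1B (85.1) stand apart to the right, and all 5 STRIPAK points lie left of the line.

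The start windows of the members differed widely in GC content. Windows of 8 of the 10 genes, 13 in all, are described, and those of STK3 and STK26 were not analysed here. The printed STK24 window held 87.0% GC, more than 99.9% of the 22035 windows of protein-coding genes, whose median was 62.3%. Of the 13 member windows, 9 lay above that median and 4 below it. The YAP1, LATS1 and LATS2 windows that overlapped a peak held 70.7%, 70.0% and 67.7%. Windows of members without a peak held 72.0% for SAV1, 71.0% for STK4, 63.0% and 37.0% for WWTR1, and 79.3%, 75.7% and 56.7% for the 3 windows of STK25. The second STK24 window was below the median of all windows, the second LATS1 window held 30.3%, and neither overlapped a peak.

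Across all windows, those that overlapped a peak had a median GC content of 71.3% and the others 60.7%. The share that overlapped a peak went from 0.363% in the lowest of 10 equal groups by GC content to 35.7% in the highest group, which holds the printed windows of STK24 and STK25. In the group from 68.7 to 72.0% GC, with YAP1, one LATS1 window and STK4, the share was 22.0%. GC content thus moved with the presence of a peak across all windows, and its part in the members' peaks was not tested.

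**Figure D4:**
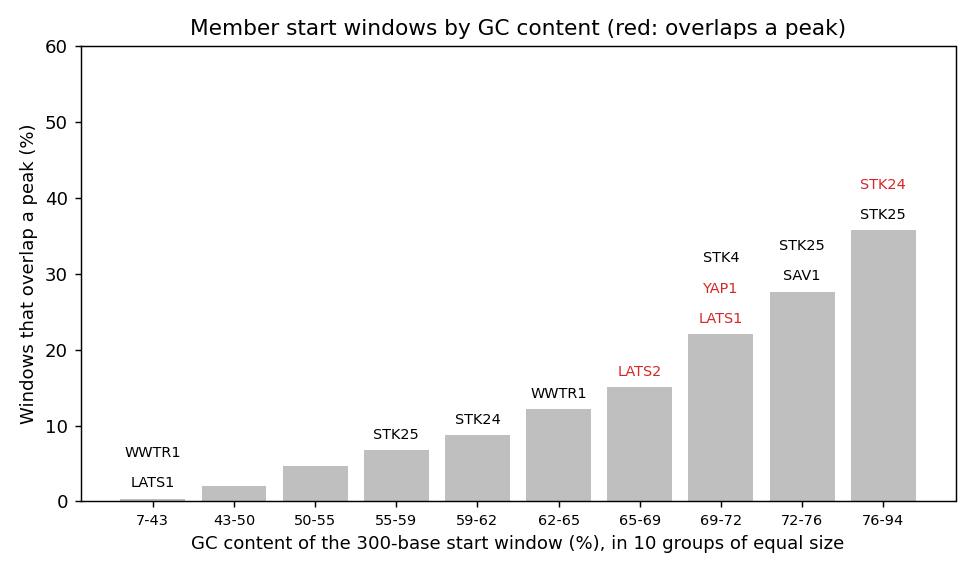
Share of 300-base start windows that overlap a peak (bars, vertical axis in percent) in 10 equal groups of windows by GC content (horizontal axis). Names stand above the group in which each member window falls, in red where the window overlaps a peak, and their height has no meaning. The share rises from 0.363% to 35.7%, and STK24 and one STK25 window both fall in the highest group.

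To describe sequence at strong peaks, words of 8 bases were ranked in the 37 windows, members left out, that held the summit of a peak with a fold of at least 30. Both strands were read. The 3 words whose share exceeded by most that in the 10162 windows of at least 60% GC without a peak were CCCGGGGC (51.4% against 9.98%), CCGGGGCC (45.9% against 8.21%) and CCCGGGCC (45.9% against 10.3%). These words overlap one another, were selected on those 37 windows, and are given without a test. They hold only G and C, and the compared windows were not matched in GC content, whose part in the excess was not tested. At least one of them was in 83.8% of the 37 windows, in 47.8% of 408 windows with the summit of a peak of fold under 10, in 21.6% of the windows of at least 60% GC without a peak and in 16.2% of all windows.

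Among the members, matches were found in 1 window with a peak and 1 without. The STK24 window held 1 match, to CCCGGGCC, and the KMT2A window 3. Unlike the members, KMT2A was not left out when the words were chosen, so its matches may be part of that choice. The printed STK25 window, shown because it holds the most matches of the gene's 3 windows, held 3, although the gene had no listed peak. In the KMT2A and STK25 windows some matches overlap, so that the 3 matches cover 18 bases in each. The other two STK25 windows and the second STK24 window held no match. No match was present in the windows of YAP1, LATS1, LATS2, SAV1, STK4 and WWTR1. The STK24, YAP1 and LATS2 summits lay downstream of their windows, so the sequence under those summits was not read here, and a match or its lack in a window is not a statement about binding.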

How the data were processed

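PLC/PRF/5 cells with ZFP64 overexpression gave 1 Flag ChIP and 1 input library. Bowtie2 2.4.1, SAMtools, MACS2 2.2.7.1, deepTools 3.5.0 and the build hg38 are named in the submitters' processing notes, with no role or order. For each peak the authors deposited a fold (a ratio over background), a p-value and a q-value, which compare these 2 libraries. Peak class, gene and distance to a start are the deposited annotation, made with a tool not named in the labels. Library totals were not used here. The summit offset was counted from 1 at the first base of a peak, which could shift summits by 1 bp.

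From these, ranks, gene counts and distances were computed (Python 3.11.15, pandas 2.3.3, SciPy 1.17.1). ChIP fragments at the summit were inferred by solving fold and p-value together for a whole number under a Poisson model with a pseudocount of 1. A whole number was found for 6293 of 6302 peaks with a p-value above 0 (tolerance 0.001 in log10 p). The procedure was tested only on data simulated under the same Poisson model, which cannot show whether the deposited values follow it. Genes were matched by identifier to the RefSeq table of GRCh38.p14. Intervals are exact Poisson or Clopper-Pearson at 95% and cover counting error only.

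Members and lists were chosen with earlier results of these data known. Text names all members, up to 4 genes per list by promoter fold, the 3 promoter peaks on either side of STK24 in rank, KMT2A and ZFP64. Genes beyond this rule (NF2, WWC2, WWC3, STK38, MOB1A, STK38L, HSPE1-MOB4, MOB4, TEAD1, TEAD2, CCN1, CCN2 and the genes nearest to members) were added after their values were seen. A gene that the rule takes and a start window are not reported here. The rules for GC content and for 8-base words were also set after the data were examined.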

Additional observations from a re-analysis of the deposited data

How the results depend on the processing

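The count of members with a promoter peak was 4 within 3 kb of a start, within 1 kb, at folds of 5 or more and with any assigned peak counted. It was 3, without LATS1, for peaks whose −log10 q reached 10, and 5, with STK3 added, for peaks within 3 kb of either gene end. The matching shares of protein-coding genes were 20.3%, 19.4%, 15.8%, 23.4%, 11.6% and 23.7%. For the 84 other pathway genes, 31 had a promoter peak, and the alternatives gave 29 to 33 except for 23 at folds of 5 or more and 20 where −log10 q reached 10, which keeps fewer peaks. Ranked by p-value instead of fold, 98.7% of promoter peaks stood below STK24, 89.4% below YAP1 and 30.7% below LATS1. Ranked by recovered fragments, 92.5% stood below YAP1, 66.8% below LATS2 and 37.5% below LATS1, and STK24 could not be placed. That ranking held only the 4839 promoter peaks with a p-value above 0, against 4905 in the rankings by fold and p-value. The cause of these shifts was not tested, except that the p-value of STK24 is tied at 0 with others. No paired analysis was possible because neither kind of library has a replicate. Among the member peaks with recovered fragments, that of LATS1 had the fewest (18).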
